A study of Homo sapiens with 2 samples.

Results

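The genes described here are 32 genes of protein folding in the endoplasmic reticulum (ER) and of the unfolded protein response. They were chosen by symbol from the 36601 genes listed in the files, with earlier results of these data known. They comprise 9 chaperones and co-chaperones (HSPA5, HSP90B1, HYOU1, CALR, CANX, DNAJB11, DNAJB9, DNAJC3, SDF2L1), 2 secreted ER stress factors (MANF, CRELD2), 4 protein disulfide isomerases (PDIA3, PDIA4, PDIA6, P4HB), 4 sensors and transcription factors (XBP1, ATF6, ERN1, EIF2AK3), 6 genes of ER-associated degradation (HERPUD1, SEL1L, SYVN1, EDEM1, DERL1, DERL2) and 7 genes of protein entry into the ER (SEC61A1, SEC61B, SEC61G, SSR1, SSR2, SPCS1, SPCS2). They were measured by single-cell RNA sequencing in A549, an established human lung adenocarcinoma cell line labelled as epithelial. One library (control) came from cells in flat culture that were not confined. The other library (squashed) came from cells confined with polydimethylsiloxane (PDMS) micropillars. In both, live cells that had lost a chromosome reporter, about 1 in 500, were sorted after 48 h of recovery, so the controls had lost the reporter too. The sources used here name neither the reporter's chromosome nor the number of clones or cultures behind each library.

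The ER folds secreted and membrane proteins. When unfolded proteins build up in it, the membrane sensors ATF6, IRE1 (encoded by ERN1) and PERK (encoded by EIF2AK3) start the unfolded protein response. IRE1 splices the mRNA of the transcription factor XBP1, ATF6 is cut to release a transcription factor, and PERK slows translation; the transcription factors raise the mRNAs of chaperones, disulfide isomerases and the machinery that returns misfolded proteins to the cytosol for degradation. Secretory epithelial cells use the same genes to set their folding capacity.

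The promoters show a sequence that some of these genes share. The ER stress response element (ERSE), searched as CCAAT and CCACG with any 9 bases between them, is the textbook binding sequence through which ATF6 and XBP1 act. ERSE-II, searched as ATTGG and CCACG with any 1 base between them, is a shorter arrangement of the same boxes. Promoters of 300 bases, 250 before and 50 after a gene's start, were matched by symbol in RefSeq (GRCh38.p14) for 29 of the 32 genes, all but DERL1, PDIA3 and SPCS1. Searched on both strands, ERSE was found in 27 of 35116 promoters (0.0769%), and 9 of these 27 belong to 7 of the genes described here (CALR, CANX, CRELD2, HSP90B1, HSPA5, PDIA6, XBP1). ERSE-II was found in 19 promoters (0.0541%), among them those of HERPUD1, HYOU1 and SDF2L1. The 250 bases before the start are printed for 5 of the 10 genes that hold ERSE or ERSE-II, the 3 whose transcripts were high together in some cells (HSPA5, HSP90B1, PDIA6) and the 2 that, of the 10, differed most between the libraries (CALR, HERPUD1), 5′ to 3′ on the gene's strand, with capitals marking the outer boxes of ERSE or, in HERPUD1, of ERSE-II. HSPA5 lies at chr9:125241344-125241593 (minus strand), HSP90B1 at chr12:103930160-103930409 (plus), PDIA6 at chr2:10812786-10813035 (minus), CALR at chr19:12938359-12938608 (plus) and HERPUD1 at chr16:56931892-56932141 (plus).
HSPA5: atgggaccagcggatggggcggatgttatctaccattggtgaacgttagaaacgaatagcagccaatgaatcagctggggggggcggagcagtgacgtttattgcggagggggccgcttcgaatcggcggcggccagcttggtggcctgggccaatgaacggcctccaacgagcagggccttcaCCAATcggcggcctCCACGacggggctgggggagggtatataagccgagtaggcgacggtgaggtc
HSP90B1: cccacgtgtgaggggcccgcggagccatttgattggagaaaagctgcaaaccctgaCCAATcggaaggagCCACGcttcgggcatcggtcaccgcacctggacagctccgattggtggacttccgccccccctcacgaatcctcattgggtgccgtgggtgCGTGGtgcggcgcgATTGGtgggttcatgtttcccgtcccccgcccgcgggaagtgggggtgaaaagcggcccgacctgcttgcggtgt
PDIA6: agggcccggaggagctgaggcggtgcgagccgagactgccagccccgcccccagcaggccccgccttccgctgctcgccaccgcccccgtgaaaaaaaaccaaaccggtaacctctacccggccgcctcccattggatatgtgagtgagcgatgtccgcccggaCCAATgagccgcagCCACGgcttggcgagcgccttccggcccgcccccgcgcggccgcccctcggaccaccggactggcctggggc
CALR: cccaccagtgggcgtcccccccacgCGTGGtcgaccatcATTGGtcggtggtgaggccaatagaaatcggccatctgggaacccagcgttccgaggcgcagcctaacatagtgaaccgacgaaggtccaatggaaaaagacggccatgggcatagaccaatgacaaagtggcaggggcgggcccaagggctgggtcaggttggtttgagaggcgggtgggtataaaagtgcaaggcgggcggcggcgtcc
HERPUD1: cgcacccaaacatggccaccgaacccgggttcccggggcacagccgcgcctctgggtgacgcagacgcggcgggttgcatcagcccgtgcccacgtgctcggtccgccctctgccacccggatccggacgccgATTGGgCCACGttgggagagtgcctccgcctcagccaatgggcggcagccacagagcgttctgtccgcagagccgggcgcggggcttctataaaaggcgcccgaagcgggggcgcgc
HSPA5 holds its ERSE match 66 bases before the start, PDIA6 86 bases before it and CALR, on the opposite strand, 225 bases before it. HSP90B1 has a match on each strand, 194 and 89 bases before the start. A match describes the letters only and is not evidence of binding in these cells. The UPRE (TGACGTGG, in 0.729% of promoters) was found only in HYOU1 among the 29, and the amino acid response element CARE (TGATGCAA, in 0.866%) only in HERPUD1, 176 bases before its start.

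Each library is 1 sample, so the ratios below compare these 2 libraries and not the conditions. No test was made, and each interval is an exact 95% interval for counting error only. After filtering, 1906 control cells with 27482392 unique molecular identifiers (UMIs, 1 per captured RNA molecule) and 1930 squashed cells with 23328323 UMIs remained. The median cell held 2598 genes and 5.77% mitochondrial UMIs in the control and 1790 genes and 7.10% in the squashed library; 4 barcodes occurred in both libraries, 2 of them among the kept cells. The defining markers of the labelled epithelial type were present only in part. The keratin KRT8 stood at 796 and 1168 CPM (UMIs of a gene scaled by the library's total) and KRT7 at 350 and 381 in control and squashed cells, while KRT18 stood at 1691 and 557, 3.04-fold lower in squashed cells. KRT19 stood at 2.44 and 2.79 CPM, CDH1 at 7.86 and 4.12 and EPCAM at 0.18 and 0. Markers of other cell types were near 0: the summed level was 8.08 and 6.64 CPM over 7 fibroblast genes, 2.11 and 2.06 over 8 immune genes and 0.07 and 0.04 over 5 endothelial genes.

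Most of the ER genes stood slightly lower in the squashed library, and a small set stood much lower. A gene was counted as measured at 20 CPM or more in either library, which held for 23 of the 32, and as lower or higher at a 1.5-fold difference. Of these 23, 6 were lower (CALR, DNAJB11, DNAJC3, MANF, P4HB and HERPUD1), against 12.4% of all 4307 measured genes, and 0 were higher, against 3.48%. MANF and HERPUD1 reached 20 CPM in the control library only, with 9.30 and 6.43 CPM in the squashed library. They were thus counted through the library where they stood higher. The direction was below 0 in 22 of 23, against 68.4% of all measured genes, and the median log2 ratio was -0.26 against -0.14. Of the 23, 16 lay below the median of all measured genes. The summed level of the 32 genes went from 4456 CPM in control cells to 3790 in squashed cells (log2 ratio -0.23, -0.25 to -0.22). Scaling the libraries by TMM moved the median of all genes to 0.03 and that of the 23 to -0.11, so that small ratios changed sign while the 5 largest differences stayed past 1.5-fold. Of the 23, HSPA5, HSP90B1, ATF6, DERL1, DERL2, SEC61B and SSR1 then joined SEC61G above 0. The count of 22 below 0 thus depended on the scaling.

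**Figure D1:**
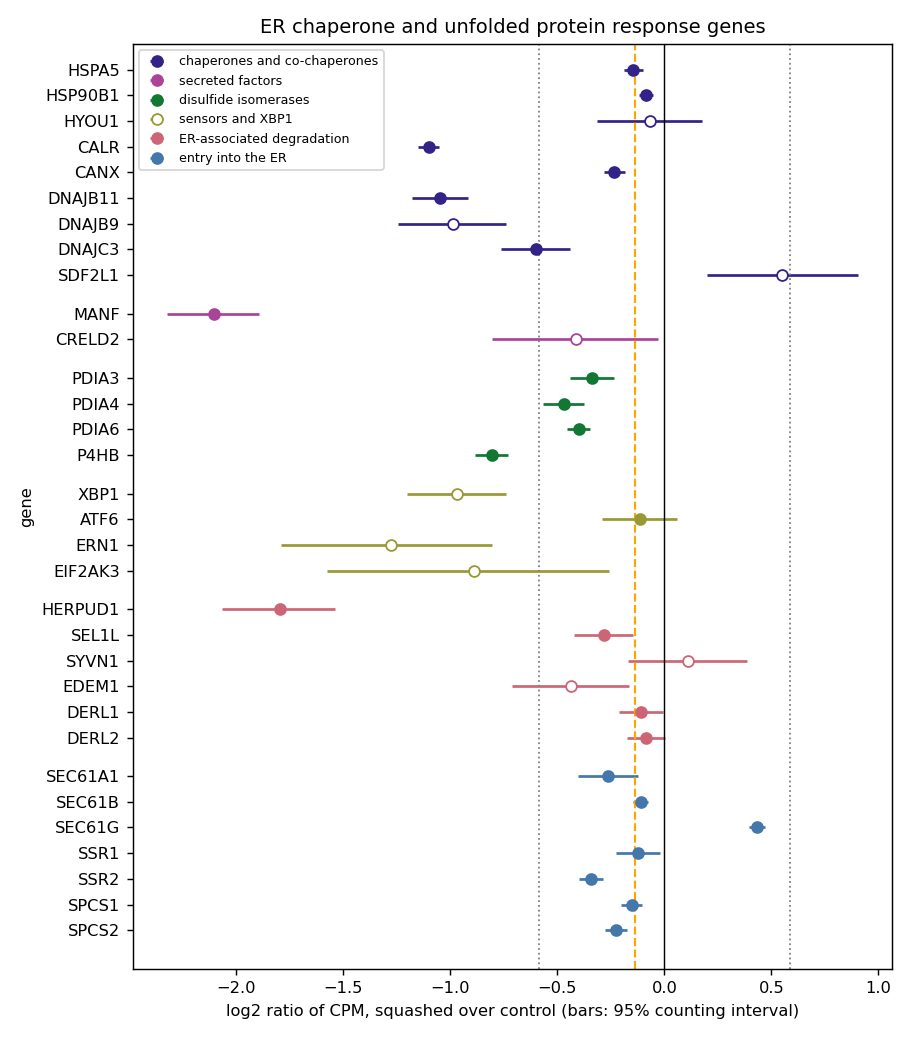
The log2 ratio of CPM, squashed over control (x axis), is plotted for each of the 32 genes (y axis), coloured by role, with bars for the 95% counting interval. Hollow points are genes under 20 CPM in both libraries, dotted lines mark a 1.5-fold difference and the dashed line marks the median of all measured genes (-0.14). MANF, HERPUD1, CALR, DNAJB11 and P4HB lie far to the left, and SEC61G (0.43) is the 1 measured gene right of 0.

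Among the chaperones, the calnexin and calreticulin pair differed in size. CALR, the soluble lectin chaperone and calcium store of the ER lumen, had 417 CPM in control and 194 in squashed cells (2.14-fold lower; log2 -1.15 to -1.05). CANX, its membrane-bound relative, stood at 280 and 239 CPM (log2 ratio -0.23, -0.28 to -0.18). CALR thus lay outside the range of the small differences and CANX within it. Both promoters hold ERSE. HSPA5 (BiP), the ER HSP70 that binds unfolded chains and holds the sensors inactive, stood at 340 and 308 CPM (-0.14, -0.19 to -0.10), and HSP90B1 (GRP94), the ER HSP90, at 637 and 601 CPM (-0.08, -0.12 to -0.05). Both of these ratios changed sign under TMM (0.01 for HSPA5 and 0.07 for HSP90B1), and HSPA5 stood at 0.47 with a stricter cell filter, so their direction over the whole libraries depended on the processing.

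The 3 J-domain partners of HSPA5 among the 32 genes had lower ratios than HSPA5 itself. HSPA5 ranked 2109 from the lowest of 4307 measured genes, so many other genes lay below it too. DNAJB11, a J-domain protein that hands substrates to HSPA5, stood at 59.4 and 28.8 CPM (2.06-fold lower, log2 -1.18 to -0.92). DNAJC3 (p58IPK), another J-domain partner, stood at 32.3 and 21.3 CPM (1.52-fold lower, log2 -0.76 to -0.44). DNAJB9 (ERdj4), an inducible J-domain protein, stood at 15.8 and 7.97 CPM, under the level counted as measured, with a log2 ratio of -0.99 (-1.24 to -0.74) that changed to 0.11 with cells thinned to 2000 UMIs. HSPA5 stood at -0.03 with that thinning, so DNAJB9 did not lie below it there. DNAJC3 lay close to the 1.5-fold line and passed it in 4 of the 10 alternatives of scaling, filtering and weighting. HYOU1, an ER HSP110 that serves as nucleotide exchange factor, was equal within counting error at 11.3 and 10.8 CPM (-0.07, -0.31 to 0.18). SDF2L1, a partner of ER J-domain proteins, rested on 124 and 154 UMIs, 4.51 and 6.60 CPM, with a log2 ratio of 0.55 (0.20 to 0.90).

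The secreted factor MANF showed the largest difference among the measured ER genes. It protects cells under ER stress and is itself made on demand in it. Its 1100 control UMIs gave 40.03 CPM and its 217 squashed UMIs 9.30 CPM, 4.29-fold lower (log2 -2.32 to -1.89). CRELD2, another secreted ER stress protein, stood at 5.31 and 3.99 CPM (-0.41, -0.81 to -0.03) and was not counted as measured.

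All 4 disulfide isomerases, which form and rearrange disulfide bonds in folding proteins, had ratios below the median of all genes. P4HB (PDI), which also serves as a subunit of prolyl 4-hydroxylase, stood at 157 and 89.6 CPM (1.75-fold lower, log2 -0.88 to -0.73). PDIA4 stood at 84.9 and 61.3 CPM (-0.47), PDIA6 at 256 and 194 CPM (-0.40) and PDIA3, the partner of calnexin and calreticulin, at 69.5 and 54.9 CPM (-0.34). P4HB was the 1 isomerase past 1.5-fold.

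Transcripts of the sensors were sparse. ATF6 was the 1 sensor counted as measured, at 22.7 and 20.9 CPM (-0.12, -0.29 to 0.06), a difference within counting error. XBP1 stood at 18.7 and 9.56 CPM (-0.97, -1.20 to -0.74) but at 0.32 with a stricter cell filter (at least 2000 genes, at most 10% mitochondrial UMIs). ERN1 stood at 5.02 and 2.06 CPM (-1.28, -1.79 to -0.80) and EIF2AK3 at 2.40 and 1.29 CPM (-0.89, -1.57 to -0.26), and EIF2AK3 also changed sign under that filter (0.42). Counts per gene do not separate spliced from unspliced XBP1 mRNA, so the activity of IRE1 was not measured.

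In ER-associated degradation, 1 gene stood apart from the rest. HERPUD1, a stress-induced membrane protein that brings together the degradation complex, had 614 control UMIs, 22.3 CPM, and 150 squashed UMIs, 6.43 CPM, a level 3.47-fold lower (log2 -2.06 to -1.54). With the stricter cell filter its log2 ratio was -1.06. SEL1L, the scaffold of the complex, stood at 38.5 and 31.6 CPM (-0.28), and the channel proteins DERL1 and DERL2 at 63.7 and 59.2 CPM (-0.11) and at 83.4 and 78.5 CPM (-0.09). The ubiquitin ligase SYVN1 (HRD1) stood at 8.26 and 8.92 CPM (0.11, -0.17 to 0.39) and the mannosidase-like EDEM1, which marks glycoproteins for degradation, at 10.7 and 7.93 CPM (-0.44, -0.71 to -0.17). HERPUD1 thus differed by far more than its partners in the same complex.

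Of the 7 genes of the entry machinery 0 were past 1.5-fold in either direction, a count near the 12.4% lower and 3.48% higher of all genes. The subunits of the translocation channel stood at 36.6 and 30.5 CPM for SEC61A1 (-0.26), 532 and 493 CPM for SEC61B (-0.11) and 365 and 493 CPM for SEC61G (0.43, 0.39 to 0.47). SEC61G was therefore higher in the squashed library while the other subunits were slightly lower. Its annotated transcript is 425 bases long, and the 60 measured genes with transcripts of up to 500 bases had a median of 0.52, with 48.3% of them at least 1.5-fold higher; the part of transcript length in its ratio was not tested. The translocon-associated proteins SSR1 and SSR2 stood at 63.3 and 58.1 CPM (-0.12) and at 221 and 174 CPM (-0.34), and the signal peptidase subunits SPCS1 and SPCS2 at 288 and 259 CPM (-0.15) and at 262 and 224 CPM (-0.23).

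Over the 9 genes under 20 CPM in both libraries, the counting interval lay below 0 in 6 (DNAJB9, CRELD2, XBP1, ERN1, EIF2AK3, EDEM1), above 0 in 1 (SDF2L1) and across 0 in 2 (HYOU1, SYVN1). No such share was taken over all genes under 20 CPM, so these counts have no background. XBP1 (0.32), EIF2AK3 (0.42) and EDEM1 (0.42) lay above 0 with the stricter cell filter, and DNAJB9 (0.11) with cells thinned to 2000 UMIs. CRELD2 and ERN1 stayed below 0 under all alternatives. Of the 6 genes past 1.5-fold, 2 (CALR and HERPUD1) hold ERSE or ERSE-II. So do 6 of the 23 measured genes, among which DERL1, PDIA3 and SPCS1 had no promoter to search. The promoter element was thus present both in genes with large differences and in HSPA5, HSP90B1, CANX and PDIA6, whose differences were small. Across the 23 genes the ratio correlated with GC content of the transcript at r = -0.47, against -0.13 over 4303 genes; the points share both libraries, and the part of GC content was not tested. Measured genes over 60% GC were at least 1.5-fold lower in 33.1% of cases, and none of the 23 falls in that class. By chromosome, the median ratio of all measured genes was -0.15 on chromosome 16 (HERPUD1), -0.17 on chromosome 19 (CALR), -0.15 on chromosome 3 (DNAJB11 and MANF) and -0.14 on chromosome 17 (P4HB), against -0.14 for all genes. The share of measured genes at least 1.5-fold lower was 18.1% on chromosome 16, 22.9% on chromosome 19, 8.44% on chromosome 3 and 14.2% on chromosome 17, against 12.4% of all genes, and the part of the chromosome in these ratios was not tested. The genes themselves lie, on GRCh38, at chr16:56932142-56944864, chr19:12938578-12944489, chr3:186567403-186585800, chr3:51385291-51389397 and chr17:81843159-81860856.

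Other genes of the secretory pathway were taken from lists of further members of each step. Their counts past 1.5-fold stand against 12.4% lower and 3.48% higher over all measured genes. Of 21 measured further folding genes 4 were lower and 0 higher (median -0.23), led by the peroxiredoxin PRDX4 at 294 and 159 CPM (-0.89), the reductase DNAJC10 at 55.6 and 31.0 CPM (-0.84) and CNPY3 at 44.03 and 27.6 CPM (-0.68). Of 12 further degradation genes 0 were lower or higher (median -0.23), with SELENOS at -0.39, OS9 at -0.35 and FAF2 at -0.32. Of 27 further entry genes 1 was lower (TRAM1, -0.78) and 2 were higher (TMEM258, 0.67, and SEC62, 0.63). The medians of the folding and degradation lists lay near the -0.26 of the 23 ER genes, with 17 of 21 and 11 of 12 genes below 0 against 68.4% of all genes; the differences between lists were not tested.

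Among the regulators and the PERK arm 7 of 7 and 4 of 5 measured genes had ratios below 0, against 68.4% of all measured genes. The medians were -0.14 for the regulators and -0.03 for the PERK arm, against -0.14 for all genes. Of the 7 regulators 0 passed 1.5-fold, against 12.4% lower and 3.48% higher over all genes (MBTPS1, the protease that cuts ATF6, at -0.43, CREB3L2 at -0.28 and CREB3 at -0.17). In the PERK arm, the transcription factor ATF4 stood at 171 and 136 CPM (-0.33) and NUPR1 at 41.8 and 33.4 CPM (-0.32). CEBPB, a transcription factor with many inputs besides PERK, stood at 12.3 and 34.8 CPM (1.495, 1.31 to 1.68) and was the 1 of 5 measured genes past 1.5-fold, against 3.48% higher over all genes. CEBPB reached 20 CPM in the squashed library only, so it was counted through the library where it stood higher. Of 20 genes of transport between ER and Golgi 2 were lower, a share near the 12.4% of all genes. These were the cargo adaptors TMED2 at 154 and 74.1 CPM (-1.06) and TMED3 at 54.5 and 31.4 CPM (-0.79), while the receptor SURF4 stood at -0.43.

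The libraries differed in the makeup of their cells, so the ratios were taken again within cell states. Clustering without the 32 genes, with every gene centred within its library, gave 5 states, of which 4 held at least 100 cells per library among cells with 2000 UMIs or more. State 0 (316 control and 642 squashed cells; SNHG32 and SH3BGRL3 lead it) held cells with few genes, a median of 1438 and 1305. State 1 (392 and 279 cells; NEAT1, FOS) held the cells with most UMIs and genes. State 2 (573 and 512 cells; KIF14, CENPF, MKI67, TOP2A) was mostly in G2M by phase call, with 95.3% and 85.4% of its cells, and state 3 (495 and 316 cells; MTRNR2L8, PTTG1, CDC20) likewise with 84.2% and 77.2%. The states carry no cell type name.

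CALR, DNAJB11, MANF, P4HB and HERPUD1 were at least 1.5-fold lower in each of the 4 states. Over all measured genes this held for 5.73%. The limit of 20 CPM was applied to the whole libraries and not within each state. Within states, HERPUD1 was under 20 CPM in both libraries in states 0, 2 and 3, and MANF in state 0 (19.1 and 5.46 CPM). CALR ranged from -1.22 in state 3 to -1.02 in state 1, and P4HB from -0.81 to -0.78, so these genes differed by nearly the same amount in every state. MANF ranged from -2.25 in state 1 to -1.79 in states 0 and 2. HERPUD1 ranged from -1.80 in state 1 to -1.17 in state 2, and in state 0 it rested on 10 control and 5 squashed UMIs (-1.50, -3.46 to 0.12). The same 5 genes were lower in every group of a finer clustering with at least 100 cells per library (background 6.83%) and in both G1 and G2M cells (background 7.85%).

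HSPA5 did not keep 1 direction across states. It stood at 475 and 352 CPM in state 1 (-0.43, -0.51 to -0.36), and at 322 and 404 CPM in state 2 (0.33, 0.26 to 0.40). In state 0 it stood at 131 and 121 CPM (-0.11) and in state 3 at 292 and 277 CPM (-0.07), both with intervals across 0. HSP90B1 was also lower in state 1 (754 and 670 CPM, -0.17) and slightly higher in state 2 (680 and 713 CPM, 0.07). The difference between states was not tested.

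**Figure D2:**
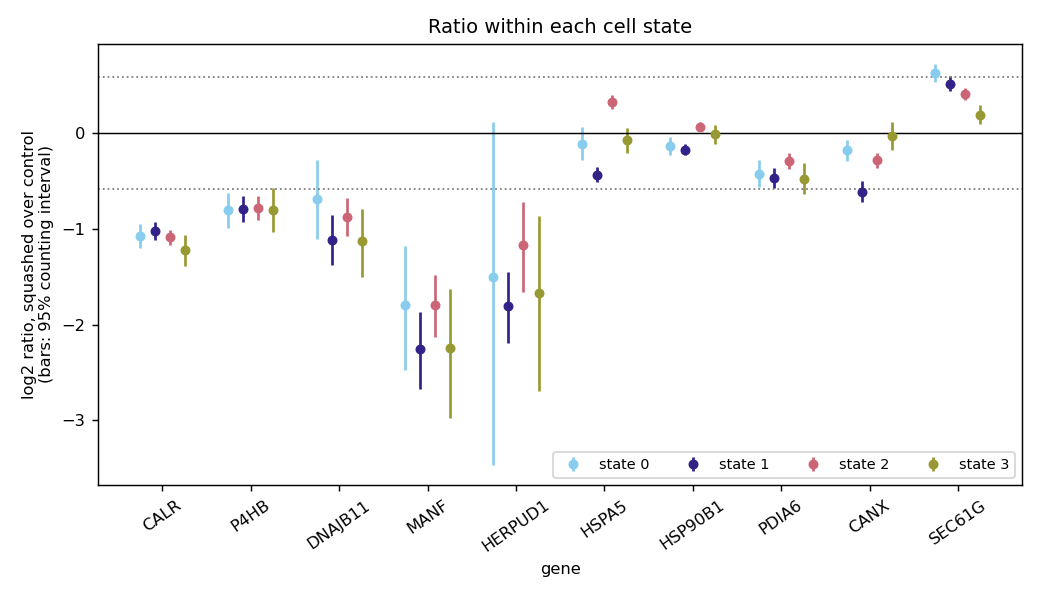
The log2 ratio of squashed over control (y axis) is plotted within states 0 to 3 for 10 of the genes (x axis), with bars for the 95% counting interval and dotted lines at a 1.5-fold difference. CALR, P4HB, DNAJB11, MANF and HERPUD1 lie under the lower dotted line in every state, while HSPA5 lies at -0.43 in state 1 and 0.33 in state 2.

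Levels of the ER genes also differed between states within each library. Of the 23 measured genes, 14 had their highest level among states 0 to 3 in state 1 of the control, against 38% of all measured genes, and 8 in state 1 of the squashed library, against 33.9%. The lowest level was in state 0 for 15 genes in the control, against 66.2%, and 11 in the squashed library, against 64.3%, so the first of these counts lay above its background and the others near or below it. XBP1 stood at 1.08, 47.3, 7.09 and 3.06 CPM in states 0 to 3 of the control, and at 1.46, 24.5, 6.33 and 1.23 CPM in the squashed library. Its UMIs thus came mostly from the state 1 cells of both libraries, and in state 2 its ratio was within counting error (-0.16, -0.70 to 0.36). DNAJB9 showed the same order at its top, with 35.9 CPM in state 1 and 7.19 in state 2 of the control against 13.5 and 6.22 in the squashed library. HERPUD1 stood at 2.69, 41.7, 14.1 and 17.5 CPM in the control and 0.91, 11.9, 6.22 and 5.31 in the squashed library. State 1 also had the deepest cells, a median of 20589 UMIs in the control and 21461 in the squashed library, and what part depth has in these levels was not tested.

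To see how the levels spread over cells, each cell of 10000 UMIs or more (1190 control, 906 squashed) was thinned to 10000. The median cell held 45 UMIs of the 32 genes in the control (10th to 90th percentile 30 to 60) and 37 in the squashed library (25 to 53). CALR had a median of 4 UMIs against 2 and a 90th percentile of 8 against 4, so its lower level was found along the whole distribution. HSPA5 had nearly equal means, 3.38 and 3.44 UMIs, and a lower median in the squashed library, 3 against 2. Its maximum was 17 in the control and 34 in the squashed library, and its variance over mean was 2.24 and 5.08. Of 131 genes with a mean like that of HSPA5 in the squashed library, 129 had a smaller variance over mean.

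**Figure D3:**
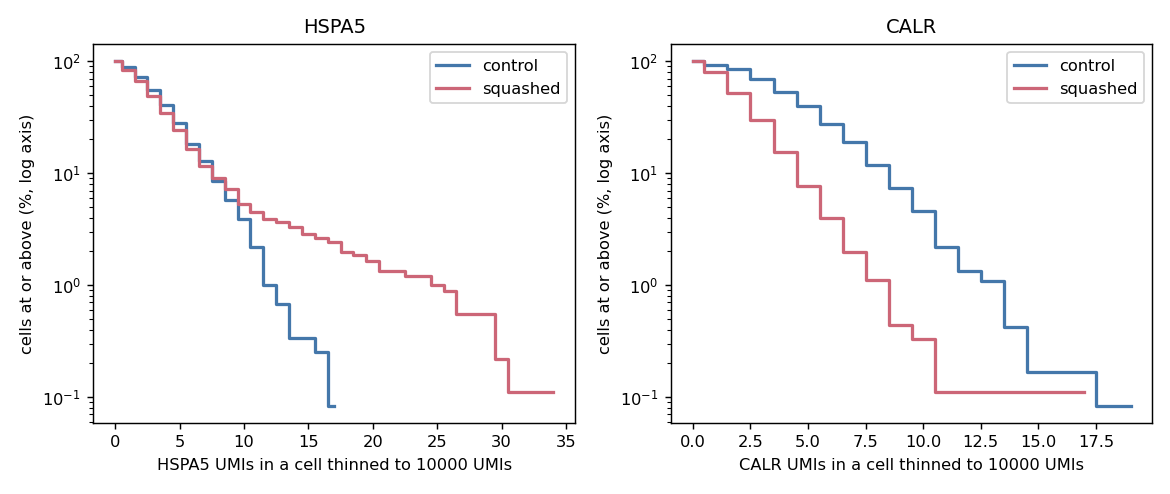
The percentage of cells at or above each number of UMIs (y axis, log scale) is plotted against UMIs per cell thinned to 10000 UMIs (x axis) for HSPA5 and CALR in the control and squashed library. The CALR curve of the squashed library lies below the control from 1 UMI on, while the HSPA5 curves cross between 7 and 8 UMIs and the squashed curve runs on to 34.

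Cells with at least 12 HSPA5 UMIs of 10000, a limit set after the distribution had been seen, were 12 of 1190 in the control (1.01%, exact binomial interval 0.52 to 1.75) and 35 of 906 in the squashed library (3.86%, 2.71 to 5.33). Without thinning, 9 control (0.76%) and 30 squashed (3.31%) of these cells had at least 1200 CPM of HSPA5, and over all kept cells it was 30 of 1906 (1.57%) and 61 of 1930 (3.16%). A limit of 10 UMIs gave 3.87% and 5.30% of the thinned cells, so the size of the gap depended on the limit and on the cells counted. The limit cuts a range and does not mark a cell type: in the control 34 cells lay just below it and 8 just above, in the squashed library 13 and 5. Of the 35 squashed cells 30 were in state 2, 7.65% of the 392 deep cells there, and of the 12 control cells 3 were in state 2 and 8 in state 1. None of the 47 was called a doublet.

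In these squashed cells most of the other ER genes stood higher too. Of the 22 other measured genes, 18 were at least 1.5-fold above the remaining deep squashed cells, against 20.2% of all measured genes. In the control it was 11 of 22, against 23.4%, from 12 cells. HERPUD1 stood at 37.1 CPM in the 35 cells and 5.40 CPM in the other 871 (log2 ratio 2.82, 1.77 to 3.69), DNAJB11 at 109 and 24.3 CPM (2.17), DNAJC3 at 68.6 and 20.7 CPM (1.76) and PDIA6 at 583 and 185 CPM (1.66). These values span co-chaperones, a degradation gene and an isomerase. HSP90B1 stood at 1560 and 597 CPM (1.39, 1.26 to 1.51), MANF at 25.7 and 9.87 CPM (1.45, from 9 UMIs in the 35 cells) and PDIA4 at 146 and 58.9 CPM (1.32). All 7 were also higher within state 2 alone, where the ratios ran from 1.21 for HSP90B1 to 2.95 for HERPUD1; the interval of MANF there spans 0 (1.23, -0.26 to 2.33).

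The ER genes with the smallest differences in these cells were SPCS1 (0.09), ATF6 (0.33), SSR2 (0.34) and DERL1 (0.48), each with an interval across 0. CALR (0.62) and P4HB (0.66) were only modestly above the other squashed cells. CALR, at 291 CPM from 102 UMIs, stayed below the 415 CPM of the remaining control cells. P4HB, at 137 CPM from 48 UMIs, stood near their 154 CPM. No interval was taken for these 2 comparisons. XBP1 had 3 UMIs in the 35 cells (8.57 against 8.15 CPM). From the lists of other ER genes, 6 of 21 further folding genes were higher and 2 lower (median 0.09), and 5 of 12 further degradation genes were higher and 2 lower (median 0.30), against 20.2% higher over all genes (median 0.13). Of 27 further entry genes 11 were higher and 0 lower (median 0.50), and of 20 genes of transport between ER and Golgi 7 and 0 (0.39). Of 7 regulators 3 were higher and 0 lower (0.55), and of 5 genes of the PERK arm 2 and 1 (0.25). Some single genes outside the 32 were named after their values had been seen. Of these, the degradation gene SELENOS (2.26), the isomerase AGR2 (1.89), the secreted factor STC2 (1.84) and SERP1 (1.77) stood higher. The amino acid transporter SLC38A2 stood lower (-1.07), from 6 UMIs in the 35 cells. Within state 2 its interval spans 0 (-0.62, -2.20 to 0.44), and in the 12 control cells SLC38A2 stood higher (1.98, 1.35 to 2.51). DDIT3, the transcription factor of prolonged ER stress, had 2 UMIs in the 35 cells. Its 5.71 CPM there against 4.94 in the rest (0.52, -2.88 to 2.15) gives no direction. ATF4 stood at 217 and 138 CPM (0.67, 0.30 to 0.99). The 35 squashed cells were shallower than the rest, with a median of 12850 UMIs against 17537, and had 4.91% mitochondrial UMIs against 9.62%. In the control the order of the mitochondrial share was the reverse, 14.5% in the 12 cells and 7.55% in the rest. What part depth or mitochondrial share has in the pattern was not tested.

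**Figure D4:**
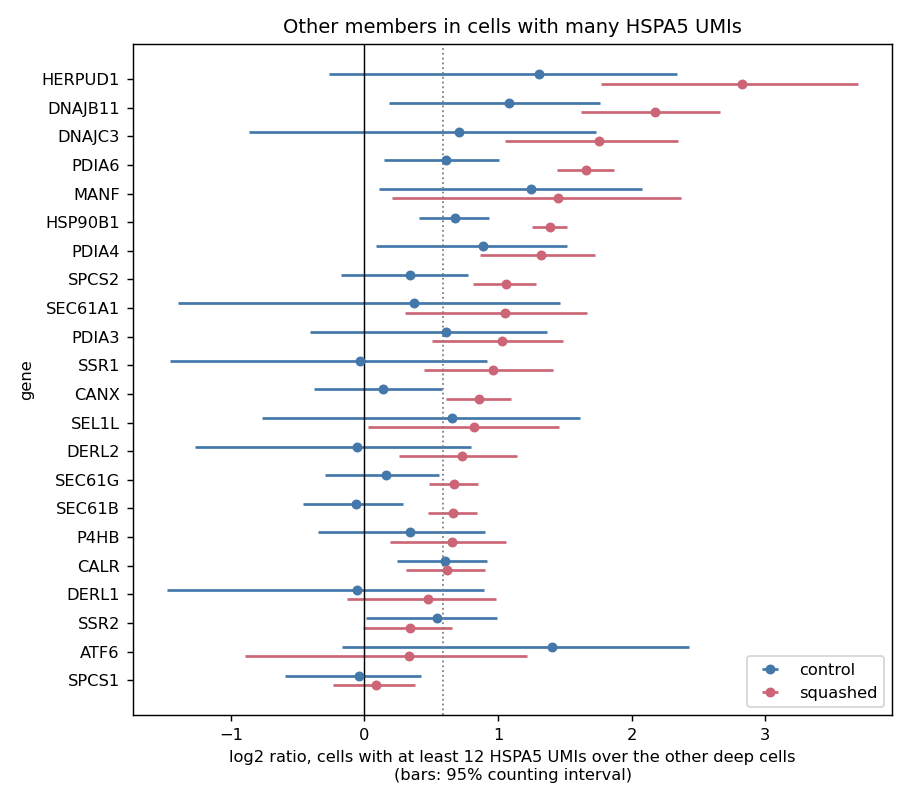
The log2 ratio of cells with at least 12 HSPA5 UMIs over the other deep cells of the same library (x axis) is plotted for the 22 other measured genes (y axis), with bars for the 95% counting interval and a dotted line at 1.5-fold. In the squashed library 18 genes lie at or beyond the dotted line, from HERPUD1 (2.82) down to CALR (0.62); control bars are wider, from 12 cells.

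The library ratios were also taken without these cells. They were chosen by their HSPA5 level and most are squashed cells of state 2, so leaving them out must lower HSPA5 there, and the values are a description only. With them, the deep cells of state 2 had 311 CPM in control and 438 in squashed cells (0.50, 0.39 to 0.60). Without them the levels were 304 and 311 CPM (0.03, -0.08 to 0.15). Over all deep cells HSPA5 stood at 338 and 344 CPM with them (0.03) and at 328 and 279 CPM without them (-0.23, -0.31 to -0.16). Over all deep cells without them, the 5 genes that were lower in every state had these ratios, with CALR at -1.12, P4HB at -0.81, DNAJB11 at -1.33, MANF at -1.89 and HERPUD1 at -2.00.

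Levels were also compared from cell to cell within each library. Across the thinned cells HSPA5 correlated with HSP90B1 at r = 0.32 in 1190 control cells and 0.51 in 906 squashed cells, with PDIA6 at 0.13 and 0.41 and with DNAJB11 at 0.14 and 0.32. With HSPA5, r was over 0.2 for 2 of 22 genes in the control, against 3.37% of all measured genes, and for 9 of 22 in the squashed library, against 1.32%. Thinned to 5000 UMIs it was 1 gene, against 0.604%, and 3 genes, against 0.766%. At 10000 UMIs, r was also taken without the cells with at least 12 HSPA5 UMIs. For HSP90B1 it was then 0.30 in 1178 control cells and 0.32 in 871 squashed cells. For PDIA6 it was 0.12 and 0.13, and for DNAJB11 0.13 and 0.07. The cells left out were chosen by HSPA5 level, which narrows its range. All of these correlations are descriptions across cells of 1 library each, which share depth after thinning, and most of the counts are sparse.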

How the data were processed

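Per the file headers, the deposited files hold UMI counts per gene and barcode, raw whole numbers made by the authors with Cell Ranger against GRCh38; the series' text gives version 5.0.1, the file headers 4.0.0. Per the labels, the kit was Chromium 3.1 and the sequencer a NovaSeq 6000 (100 cycles); the submitters' processing notes name R 4.3.2. Groups are the treatment labels, with 1 library each.

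Cells with at least 1000 UMIs, 500 genes and at most 20% mitochondrial UMIs were kept; doublets called with Scrublet (16 control, 15 squashed) stayed in. UMIs were summed per library and scaled to CPM, and log2 ratios used a prior of 0.5 count. Intervals are exact Clopper-Pearson intervals at 95%. States came from Leiden clustering (2000 variable genes, 30 principal components, 15 neighbours, resolution 0.5) without the 32 genes and with genes centred within library. Transcript length and GC content came from GENCODE 44. Tools were Python 3.11.15, scanpy 1.11.5, leidenalg 0.10.2, scipy 1.17.1 and, for TMM, edgeR 4.0.16 in R 4.3.3. On simulated data, 200 of 200 genes changed 2-fold passed 1.5-fold. Those counts were drawn with counting error only, so this result was close to fixed in advance. It checks the calculation and covers no variation between cells or libraries.

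All 32 genes are named, and of each further ER list the 3 measured genes with the largest absolute ratio; other names were chosen after their values were seen. The 32 genes and the lists were chosen with earlier results of these data known. Doublet removal, scalings, filters, thinning, state weights, priors and measured limits were varied. No estimate was made of free RNA in droplets, and overlapping genes were not separated.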

Additional observations from a re-analysis of the deposited data

Results flagged for a closer look

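For 4 genes the ratio of squashed over control lay on opposite sides of 0 in different cell states, with counting intervals that did not include 0. HSPA5 stood at -0.43 in state 1 and 0.33 in state 2. HSP90B1 stood at -0.13 in state 0, -0.17 in state 1 and 0.069 in state 2. These ratios are small, as TMM scaling alone moved its ratio over the whole libraries from -0.08 to 0.07. DERL2, a channel protein of ER-associated degradation, stood at -0.31 in state 3 (91.2 and 73.6 CPM) and 0.67 in state 0 (33.7 and 53.9 CPM). SSR1, a translocon-associated protein, stood at -0.34 in state 1 (78.7 and 62.2 CPM) and 0.35 in state 0 (35.3 and 45.1 CPM). The medians of all genes measured within states 0 to 3 were 0.04, -0.13, -0.05 and -0.13. With 1 library per group the differences between states were not tested.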

How the results depend on the processing

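No paired analysis was possible because each group has 1 library. CALR, DNAJB11, MANF, P4HB and HERPUD1 were at least 1.5-fold lower under all 10 alternatives of scaling, filtering and weighting. Of 320 single-gene ratios 33 changed sign, in 16 of the 32 genes: 8 under TMM, 9 under median-of-ratios and 12 under a stricter cell filter, the others elsewhere. Of the 33, 3 were of ratios past 1.5-fold: with a floor of 2000 genes per cell and a ceiling of 10% mitochondrial UMIs (764 control and 459 squashed cells) XBP1 stood at 0.32 and EIF2AK3 at 0.42, and thinned to 2000 UMIs per cell DNAJB9 stood at 0.11. HSPA5 reached 0.47 under the same stricter cell filter. The median of the measured ER genes was -0.11 under TMM, -0.10 under median-of-ratios size factors and -0.10 under the stricter cell filter, where the median of all genes was 0.03, 0.04 and -0.03. The share of all measured genes at least 1.5-fold lower and higher was 8.52% and 5.83% under TMM. The summed level was -0.0825, -0.0683 and -0.0736 under these settings, -0.18 without mitochondrial and ribosomal protein genes, -0.26 with all barcodes, -0.21 thinned, -0.21 with equal state weights and, added after seeing the data, -0.22 without state 0. Instead of 6 genes, 3 were lower when measured meant 50 CPM and 9 when it meant 5 CPM, which change the genes counted, and 4 under the stricter cell filter and with equal state weights, where HERPUD1 fell under 20 CPM; under median-of-ratios 1 gene (SEC61G) was higher. Thinned to 5000 UMIs, HSPA5 correlated with HSP90B1 at 0.26 in the control and 0.41 in the squashed library. Limits for many HSPA5 UMIs, added after seeing the data, gave 3.87% (10 UMIs), 0.336% (15 UMIs) and 2.47% (6 of 5000) of control cells against 5.30%, 2.87% and 4.35% of squashed cells. Other than where given, the cause was not tested. Sparse genes such as ERN1 and EIF2AK3 are limited by their depth, and 1 library per group gives no replicate error.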
